A study of Homo sapiens with 12 samples.

Results

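The regions described here are promoters that had peak calls of SREBP2, RORγ and H3K27ac in vehicle-treated HCC70 cells, and that still had an SREBP2 call after XY018. HCC70 is a cell line from a triple-negative breast cancer, and XY018 is a compound that antagonizes RORγ, a nuclear receptor. Of 117441 SREBP2 vehicle regions on chromosomes 1 to 22 and X, 13470 were selected on measured peak calls. Each overlapped by at least 1 bp a RORγ vehicle region, an H3K27ac vehicle region and an SREBP2 XY018 region. Each also overlapped a promoter, taken to reach from 1000 bp before any annotated transcript start to 100 bp after it. In steps, 29059 SREBP2 vehicle regions lay at a promoter, 20735 of these also had RORγ, 13936 of those had H3K27ac, and 13470 kept SREBP2. Of all SREBP2 vehicle regions, 39.8% overlapped an SREBP2 XY018 region. The 13470 selected regions are called the members. The SREBP2 and RORγ lists include calls of as few as 4 fragments at the summit, and the RORγ vehicle list held 167264 regions. The paper reports fewer binding sites for both factors, limited to high-confidence ones, so counts and shares here are not those of its sites.

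Chromatin from this one cell line was immunoprecipitated after 24 h with vehicle or with XY018, used at 5 µM according to the labels and at less according to the published methods. The antibodies were directed at SREBP2, at acetylated lysine 27 of histone H3, and at RORγ, the last a rabbit serum raised against a fragment of the receptor. Each of the 6 combinations of antibody and treatment was 1 library, so differences between libraries could not be set against replicate error and no p-value was computed. Intervals given below are 95% intervals that cover counting error only. Depth, recovered from the peak values, ranged from 3.65 to 6.16 tags per kb over the 6 libraries. In the H3K27ac vehicle list, 10 of 10 pan-epithelial, 9 of 12 basal and 9 of 12 luminal breast markers had an acetylated promoter at any annotated start. Among them were EPCAM, KRT5 and ESR1. The numbers were 4 of 10 for immune, 2 of 9 for endothelial and stromal and 3 of 10 for liver markers. The basal keratins KRT14, KRT6A and KRT6B and the luminal markers PGR, TFF1 and TFF3 had none. The share of all genes with an acetylated promoter was not computed.

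As background, SREBP2 is made as a membrane protein of the endoplasmic reticulum. When sterols run low, SCAP escorts it to the Golgi, where proteases release its transcription factor domain, which enters the nucleus and switches on genes of cholesterol synthesis and uptake. It binds the sterol regulatory element (SRE) and at many promoters acts beside SP1, which binds GC boxes, and NF-Y, which binds CCAAT boxes. RORγ binds as a monomer to the ROR response element (RORE), and H3K27ac marks active promoters and enhancers.

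The sequences below show what stood under SREBP2 summits at sterol genes. They are hg19 sequence within 100 bp of the SREBP2 vehicle summit, limited to stretches outside annotated exons. Each is read in the direction of the coding gene with the nearest start. Capitals mark the GC box GGGCGG and the CCAAT box on either strand. INSIG1, which holds the SCAP complex in the endoplasmic reticulum, had its summit in an intron 207 bp downstream of a start. The region at NSDHL, a late enzyme of cholesterol synthesis, also lies at the promoter of CETN2. Its stretch lies just upstream of the nearest start, that of CETN2, and is read in the direction of CETN2, not of NSDHL. At SREBF1, which encodes SREBP1, the stretch lies in an intron upstream of an internal start. It is under a weak region of 10 SREBP2 fragments with vehicle and 13 with XY018.
INSIG1, chr7:155089738-155089906, plus strand: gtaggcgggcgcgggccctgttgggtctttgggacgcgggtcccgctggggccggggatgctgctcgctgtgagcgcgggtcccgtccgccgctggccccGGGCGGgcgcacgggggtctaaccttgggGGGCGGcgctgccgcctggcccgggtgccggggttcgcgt
NSDHL, chrX:151999302-151999429, minus strand: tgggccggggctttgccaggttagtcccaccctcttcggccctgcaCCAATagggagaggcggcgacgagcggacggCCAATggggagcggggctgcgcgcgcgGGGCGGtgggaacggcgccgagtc
SREBF1, chr17:17727016-17727216, minus strand: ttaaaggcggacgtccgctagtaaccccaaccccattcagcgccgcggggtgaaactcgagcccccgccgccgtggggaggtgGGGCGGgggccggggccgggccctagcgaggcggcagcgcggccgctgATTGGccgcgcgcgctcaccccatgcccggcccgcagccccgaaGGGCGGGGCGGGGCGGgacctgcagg
These stretches held 2, 1 and 4 GC boxes, and NSDHL and SREBF1 held 2 and 1 CCAAT boxes. None of them held an SRE.

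The next sequences are from regions among the 10 with the highest SREBP2 vehicle fold enrichment.
PRKAR1B, chr7:751754-751954, minus strand: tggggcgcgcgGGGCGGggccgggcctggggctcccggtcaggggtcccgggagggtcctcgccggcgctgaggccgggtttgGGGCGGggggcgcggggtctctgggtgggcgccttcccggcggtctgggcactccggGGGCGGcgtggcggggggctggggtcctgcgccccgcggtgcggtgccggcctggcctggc
TPPP, chr5:693474-693607, minus strand: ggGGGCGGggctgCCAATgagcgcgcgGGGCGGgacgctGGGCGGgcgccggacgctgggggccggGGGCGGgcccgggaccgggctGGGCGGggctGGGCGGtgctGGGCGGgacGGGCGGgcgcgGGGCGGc
ZDHHC11B, chr5:784845-784939, minus strand: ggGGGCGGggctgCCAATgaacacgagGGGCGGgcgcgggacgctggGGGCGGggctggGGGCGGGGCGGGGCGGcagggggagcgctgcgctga
They held 3, 9 and 6 GC boxes. TPPP and ZDHHC11B lie near each other on chromosome 5 and begin with the same run of bases through the CCAAT box, so reads may be shared between them and their values are uncertain.

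At the members XY018 was accompanied by lower SREBP2 signal, little net change in RORγ signal and higher H3K27ac signal. Signal is given as the number of fragments piled up at the summit of a region, recovered from its fold enrichment and p-value, and where regions overlapped the strongest was taken, whose summit can lie outside the member. Across members the median was 32 SREBP2 fragments with vehicle (quartiles 24 and 44) and 23 with XY018 (16 and 33). RORγ had a median of 23 fragments with vehicle (14 and 36) and 21 with XY018 (13 and 32). H3K27ac had 58 with vehicle (25 and 111) and 74 with XY018 (30 and 141). The XY018 values of RORγ and H3K27ac cover only members with that call under XY018. Read side by side, the SREBP2 quartiles moved down, the RORγ quartiles barely moved and the H3K27ac quartiles moved up, and all of these ranges overlapped between treatments.

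**Figure D1:**
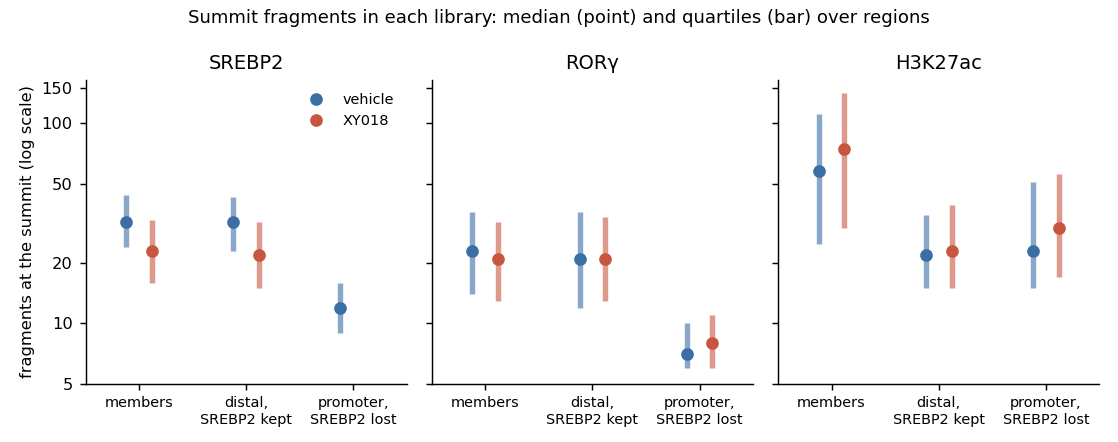
Fragments at the summit (log scale) in each of the 6 libraries for the members, for distal regions meeting the other criteria, and for promoters that lost the SREBP2 call. Points are medians over regions and bars run between quartiles. Members carried a median of 58 H3K27ac fragments with vehicle and 74 with XY018, against 22 and 23 at the distal regions. XY018 values cover only regions with an XY018 call.

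To compare libraries, each fragment number was divided by the genome-wide background of its library. The XY018 to vehicle ratio for SREBP2 then had a median of 0.619 (quartiles 0.523 and 0.722), and 97.5% of members were below 1. Because an SREBP2 XY018 call was required of every member, this ratio describes how the members were selected and supports nothing by itself. SREBP2 was at least 1.5-fold lower at 62.3% of members, where 61.4% of all SREBP2 vehicle regions with an XY018 call were, and at least 1.5-fold higher at 0.319%, against 0.969%. Scaled by tags per kb instead of background, the median was 0.686.

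RORγ occupancy with XY018 was not used to select the members, but a RORγ vehicle call and an SREBP2 XY018 call were. The RORγ shares and ratios are therefore not fully independent of the selection. A RORγ XY018 call was present at 95.8% of them (95.5 to 96.2), or 12909 regions, while 561 had none. Over all SREBP2 vehicle regions with a RORγ vehicle call the share was 76.4%, and over 8484 distal regions meeting the other criteria it was 95.8%. At 466 acetylated, RORγ-bound promoters without an SREBP2 XY018 call it was 48.3%. Those 466 were weaker to begin with, with a median of 12 SREBP2 and 7 RORγ vehicle fragments. The median RORγ vehicle number was 23 at members and 21 at the distal regions. Over all SREBP2 vehicle regions with a RORγ vehicle call it was 12. Where RORγ was called in both libraries the median ratio was 0.983 (quartiles 0.815 and 1.19), and 52.6% of members were below 1. RORγ was at least 1.5-fold lower at 9.61% of members, against 8.52% over all such regions, and at least 1.5-fold higher at 8.77%, against 13.2%.

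H3K27ac with XY018 was likewise not part of the rule, although an H3K27ac vehicle call was. The mark was called again at 94.1% of members (93.7 to 94.5), leaving 791 without it. The share was 82.7% over all SREBP2 vehicle regions with an H3K27ac vehicle call and 78.5% at the distal regions (77.6 to 79.4). These had less signal, with medians of 27 and 22 H3K27ac vehicle fragments against 58 at members. Whether strength accounts for the differing shares was not tested. At the 12678 members with a ratio, where H3K27ac was called in both libraries, the median was 1.27 (quartiles 1.05 and 1.47). Of these, 79.4% were above 1. At the 6659 such distal regions the median was 1.01, with 52.0% above 1. Over all 26482 SREBP2 vehicle regions with an H3K27ac ratio it was 1.17, with 66.3% above 1. Over 22703 H3K27ac vehicle regions at any promoter it was 1.22, and both of these sets include the members. The 791 members and 1825 distal regions that lost the call have no ratio and are not in these shares. H3K27ac was at least 1.5-fold higher at 22.5% of members with a ratio and at least 1.5-fold lower at 3.66%. Over all regions with a ratio the shares were 17.4% and 7.97%. In all, 12169 members, or 90.3%, were called in all 6 libraries. Among 12161 members with a ratio for each antibody, SREBP2 and RORγ were lower and H3K27ac higher at 43.8%, and SREBP2 was lower with RORγ and H3K27ac higher at 34.4%.

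The H3K27ac ratio moved with signal strength and with base composition. Members with fewer than 40 H3K27ac fragments in both libraries together had a median ratio of 1.03, and those with 200 or more had 1.34. At the distal regions the same classes had 0.927 and 1.29, and in each of the 5 classes the members had the higher median. Because these classes use both libraries, a high XY018 value by itself moves a region to a higher class. GC content within 100 bp of the summit graded the ratio as well. When members were ranked by GC and cut into 4 equal classes, in the lowest class (median 69.2%) the median H3K27ac ratio was 0.994, and in the highest (median 80.1%) it was 1.43. At members this order held within each of the 4 strength classes examined. From 80 to below 200 fragments the 4 GC classes had 1.08, 1.20, 1.37 and 1.5, and in the corresponding distal classes 0.979, 1.15, 1.27 and 1.46. At the distal regions the order was incomplete elsewhere, with 1.19 then 1.18 in the 2 highest GC classes under 40 fragments and 1.28 then 1.24 in the 2 lowest at 200 or more. In the lowest GC class at 200 or more fragments, members had 1.22, below the distal 1.28. In each other combination of GC and strength class the members had the higher median. RORγ graded the other way, from 1.11 in the lowest to 0.922 in the highest GC class, and SREBP2 varied little, from 0.589 to 0.639. Whether base composition has a part in the difference between treatments was not tested.

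**Figure D2:**
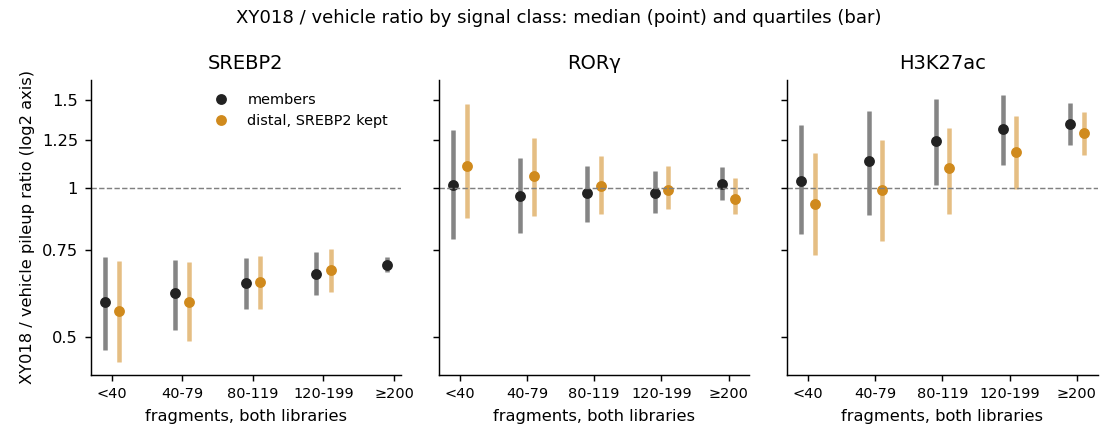
XY018 to vehicle pileup ratio (log2 axis) by the number of fragments in both libraries together, for members and distal regions. Points are medians and bars run between quartiles, and only classes of at least 20 regions are drawn. For H3K27ac the members run from 1.03 to 1.34 and lie above the distal regions in each class.

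Acetylated promoters without a call of either factor give a further comparison. H3K27ac vehicle regions that overlapped a member were called again with XY018 in 92.9% of cases, with a median ratio of 1.28. Of 9633 promoter regions with H3K27ac where neither SREBP2 nor RORγ was called, 74.3% were called again. Over these 7159 regions the median ratio was 1.19, and regions that lost the call have no ratio. The 9633 regions were weaker, with a median of 15 vehicle fragments against 50, where a fall more easily ends the call. Within classes of fragments in both libraries together, the order was the reverse. The promoters without either factor had 1.10 against 1.03 below 40 fragments, 1.23 against 1.15 from 40 to below 80, and 1.44 against 1.27 from 80 to below 120. In the 2 classes above they had 5.88 against 1.33 and 12.9 against 1.35, over 214 and 104 regions. Whether these high ratios joined different peaks was not examined. Here too a high XY018 value by itself moves a region to a higher class. Among regions called in both libraries, higher H3K27ac with XY018 was not limited to promoters with SREBP2 and RORγ.

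Occupancy of the factors ran together across members. Spearman's rho between SREBP2 and RORγ vehicle fragments was 0.773 over 13464 members, whereas it was 0.174 between SREBP2 and H3K27ac and 0.0001 between RORγ and H3K27ac. Members share libraries and base composition, so this is a description. The changes were weakly related. Between the SREBP2 and RORγ ratios rho was -0.04, between the SREBP2 and H3K27ac ratios it was 0.109, and between the RORγ and H3K27ac ratios it was -0.134. Fragment numbers differed among chromosomes. The median SREBP2 vehicle number was 47 on chromosome 16 and 45 on chromosome 7 but 23 on chromosomes 4 and 15, and RORγ had 35 and 33 against 15.5 and 17. The SREBP2 ratio changed less, with chromosome medians between 0.592 on chromosome 14 and 0.655 on chromosome X.

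Where a canonical coding start lay within 2000 bp, summits of all 3 antibodies were mostly downstream of it. This held for the SREBP2 vehicle summit at 9350 of 13470 members, and the rest were not measured. At the 9350 that summit was a median of 183 bp downstream (quartiles -4 and 363) and lay downstream in 74.5%. The medians for RORγ and H3K27ac were 199 and 198 bp. The SREBP2 and RORγ summits were within 100 bp of each other at 66.0% of members (65.2 to 66.8), compared with 74.7% at the distal regions. SREBP2 summits fell in introns at 38.1% of members, in coding sequence at 20.6%, in UTRs at 22.2% and in other exons at 9.24%, and 9.84% were intergenic. Region width had a median of 792 bp and ranged from 185 to 7986 bp. At the edge of the promoter rule, 186 members overlapped a promoter by 50 bp or less and had a median of 28.5 SREBP2 vehicle fragments, and 185 regions less than 50 bp outside had 28.

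**Figure D3:**
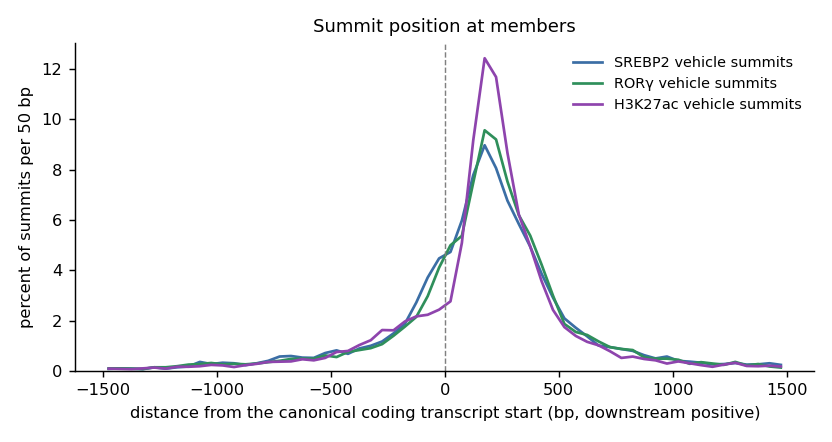
Position of vehicle summits of SREBP2, RORγ and H3K27ac at members, in bp from the nearest canonical coding transcript start with downstream positive, as percent of summits per 50 bp. All 3 curves peak downstream of the start, with medians of 183, 199 and 198 bp.

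Members were GC-rich, with GC boxes common and SRE matches rare at their summits. The GC box is a short word of G and C only, and the SRE pattern is longer and holds A and T. Their shares can therefore not be set against each other, and what base composition alone would give was not tested. Within 100 bp of the SREBP2 summit the median GC content was 75.1%, compared with 70.1% at the distal regions, 66.7% around all coding starts and 52.7% in flanks 1000 bp away. The median number of CpG dinucleotides in 201 bp was 23, against 14 at the distal regions and 5 in the flanks. The GC box GGGCGG was present at 69.9% of members (69.2 to 70.7), at 50.7% of distal regions, at 53.8% of all coding starts and at 16.4% of flanks. It was also unevenly spread with GC content, at 46.3% of the lowest and 89.4% of the highest GC class. The CCAAT box was found at 6.53% of members (6.12 to 6.96), below the 25.2% around all coding starts, the 13.0% in windows 183 bp downstream of all coding starts and the 19.8% of flanks. CCGGAAG, recognized by ETS factors, stood at 4.77% of members. It was at 11.3% around all coding starts, 3.51% in the windows 183 bp downstream and 1.74% in flanks. The E-box CACGTG stood at 5.05%, against 5.69%, 2.64% and 3.39% in the same sets.

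The SRE, searched as TCACNCCAC on both strands, was within 100 bp of 90 member summits, or 0.668% (0.538 to 0.821). Its share was 0.691% around all coding starts, 1.0% at distal regions and 1.38% in flanks. Members with and without it had median SREBP2 ratios of 0.599 and 0.619. The core of the RORE was searched as a longer pattern, in which bases upstream were fixed as well as A or G before GGTCA. It was within 100 bp of 17 summits, or 0.126%. All coding starts had 0.242%, flanks 0.457% and distal regions 0.0707%. The shorter AGGTCA by itself was at 747 members, or 5.55%. Its share was 6.78% around all coding starts, 7.69% at distal regions and 13.6% in flanks. The low RORE share therefore holds for the longer pattern only. A missing match says only that the searched letters are not in the window.

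Sequences that did hold an SRE are shown for SPSB3 and LINC01694, among the strongest such members and outside exons, and that with a RORE for ZFP57, which was chosen after its value was seen. Capitals mark the SRE or RORE core as well as GC and CCAAT boxes.
SPSB3, chr16:1839630-1839830, minus strand: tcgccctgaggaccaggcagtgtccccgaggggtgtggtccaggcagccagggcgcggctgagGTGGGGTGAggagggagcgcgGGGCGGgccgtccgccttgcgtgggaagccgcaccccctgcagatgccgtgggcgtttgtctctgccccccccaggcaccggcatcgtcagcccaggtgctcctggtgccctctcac
LINC01694, chr21:47013116-47013316, plus strand: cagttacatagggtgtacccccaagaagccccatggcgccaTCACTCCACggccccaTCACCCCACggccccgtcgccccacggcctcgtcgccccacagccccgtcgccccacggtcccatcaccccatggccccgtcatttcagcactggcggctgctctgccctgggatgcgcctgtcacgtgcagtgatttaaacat
ZFP57, chr6:29648933-29649039, minus strand: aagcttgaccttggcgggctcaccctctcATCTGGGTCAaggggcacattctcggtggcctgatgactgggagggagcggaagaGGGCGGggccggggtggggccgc
SREBP2 fragments with vehicle and XY018 were 66 and 47 at SPSB3, whose wide region had its summits 2623 bp apart, and 58 and 28 at LINC01694. At ZFP57, an imprinting zinc finger gene, RORγ fragments were 51 in both libraries.

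**Figure D4:**
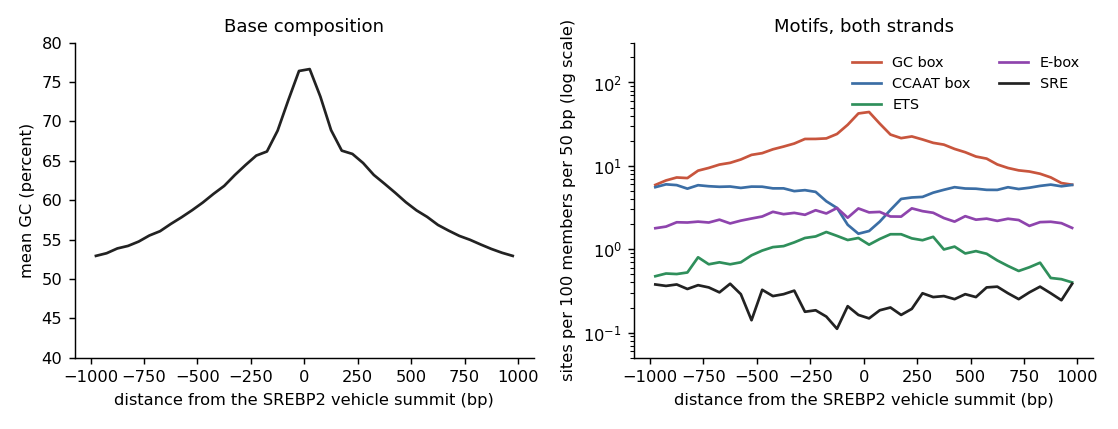
Mean GC percent (left) and number of motif sites per 100 members in 50 bp bins on a log scale (right), by distance from the SREBP2 vehicle summit, both strands counted. GC content and GC boxes peak at the summit, the CCAAT box dips there, and the SRE stays below 1 site per 100 members in each bin.

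A member lay at the promoter of 9892 of 20098 protein-coding genes, or 49.2%, and of 2980 of 18592 long noncoding RNA genes, or 16.0%. Coding promoters were touched by 12056 members, and 993 members lay at coding genes on both strands. Those had a median of 88 H3K27ac vehicle fragments, against 60 at members on 1 strand and 30 at the 1414 members with no coding promoter. As many as 13 members lay at 1 gene.

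Cholesterol synthesis genes were mostly included. Of 21 genes of the pathway, 16 had a member, or 76.2%, beside 49.2% of all coding genes. That 49.2% also counts genes without an acetylated promoter. The number was 13 with the SREBP2 summit inside the promoter and 13 with q at most 1e-05. SQLE, the squalene epoxidase, had 54 SREBP2 fragments with vehicle (40.6 to 70.5) and 29 with XY018 (19.4 to 41.6), 17 and 15 for RORγ, and 61 and 88 for H3K27ac. IDI1, which isomerizes isopentenyl diphosphate, had 55 and 31 SREBP2 fragments, and its 19 RORγ vehicle fragments had no XY018 call. LSS, the lanosterol synthase, had 39 and 23 SREBP2 fragments, at summits 856 bp apart, beside 159 and 219 for H3K27ac. The strongest, MVD, the mevalonate diphosphate decarboxylase, had 69 and 61 for SREBP2 and 212 and 237 for H3K27ac.

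Across the 23 members at these 16 genes the SREBP2 ratio, which is not independent of the selection, was below 1 at 23, with a median of 0.635. RORγ had a median ratio of 0.923 and was lower at 14 of 22. H3K27ac had a median ratio of 1.27, the same as over all members, and was higher at 16 of 22. Members with lower H3K27ac included those at SC5D, with 93 and 70 fragments, and EBP, with 54 and 44, and some at internal starts of MVD. No member lay at FDPS, HMGCS1, HSD17B7, MSMO1 and PMVK. HMGCS1 and MSMO1 had SREBP2 regions of 8 and 11 fragments without RORγ at the same place, and FDPS, PMVK and HSD17B7 had no SREBP2 call.

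**Figure D5:**
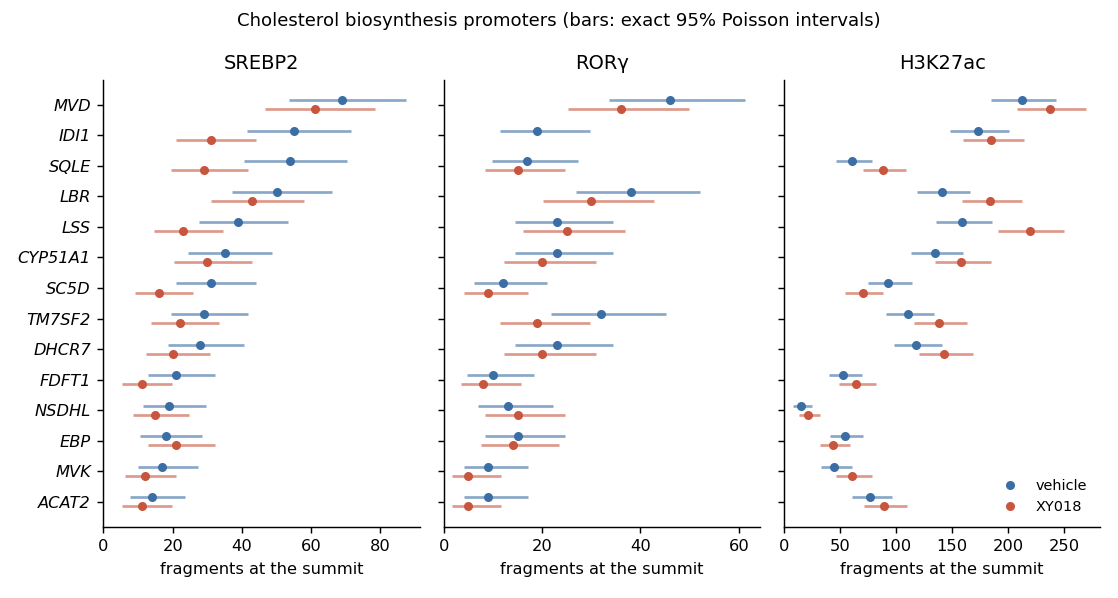
Fragments at the summit with vehicle and XY018 for the member with the most SREBP2 vehicle fragments (of equal members the one with more H3K27ac) at each of 14 cholesterol synthesis genes, with exact 95% Poisson intervals. The other 2 of the 16 genes with a member are not reported here. SREBP2 points with XY018 lie left of vehicle at most genes, as at SQLE with 54 and 29, whereas H3K27ac points lie right of vehicle at most of them.

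Regulators of the pathway and of lipoprotein uptake had a member at 11 of 14 genes, beside 49.2% of all coding genes. SREBF2, which encodes SREBP2 itself, had 49 and 28 SREBP2 fragments at summits 304 bp apart, 33 and 41 for RORγ, and 239 and 286 for H3K27ac. INSIG1 had 44 and 37 SREBP2 fragments at summits 606 bp apart, 42 and 31 for RORγ, and 150 and 211 for H3K27ac. SCAP had 23 and 19 SREBP2, 13 and 27 RORγ and 59 and 90 H3K27ac fragments. Genes without a member included INSIG2, which had no SREBP2 call, and STARD4, which had an SREBP2 region of 14 fragments without RORγ. Over the 18 members of this list the median RORγ ratio was 1.23, above the 0.983 over all members, with 11 of 16 higher.

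Other groups are given beside the 49.2% of all coding genes. Fatty acid synthesis genes had members at 10 of 12, among them FASN, with 44 and 27 SREBP2 fragments, at summits 647 bp apart, in the member at its strongest start. Circadian clock genes had 13 of 15. Genes for SREBP partners had 10 of 10, including NFYA with 47 and 21 SREBP2 fragments. Replication genes had 13 of 17, including MCM2 with 65 and 51. Unfolded protein response genes had 11 of 15. H3K27ac was higher at 14 of 14 of their members, including XBP1 with 296 and 326 fragments and PDIA4 with 181 and 249. Over all members with H3K27ac called in both libraries, 79.4% were higher. Groups below the share of all genes were cytosolic ribosomal proteins with 32 of 84, mitochondrial ribosomal proteins with 27 of 78, tRNA synthetases with 7 of 20, proteasome subunits with 9 of 39 and histone genes with 10 of 89. No member lay at any of 414 olfactory receptor genes or at 53 clustered protocadherins. For the olfactory receptors, 3 divided by the number of genes gives an approximate upper limit of 0.725%, not an exact one. HOX genes had 21 of 39, with HOXA4 at 81 and 69 SREBP2 fragments. Zinc finger genes had 210 of 508.

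The most strongly enriched member lay at PRKAR1B (chr7:750713-752884), a regulatory subunit of protein kinase A, with 111 and 74 SREBP2 fragments, 114 and 93 for RORγ and 27 and 38 for H3K27ac. CACNA1B, a neuronal calcium channel gene, had 130 and 101 for SREBP2 and 152 and 136 for RORγ, yet only 10 H3K27ac fragments with vehicle and no H3K27ac call with XY018. RPS2P32, a ribosomal protein pseudogene, had 87 and 93 SREBP2 fragments, and its reads may be shared with copies of its parent gene. High occupancy by both factors thus occurred at members with little acetylation.

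Extreme ratios often joined different peaks. Of the 10 members named for the lowest and highest ratio of each antibody among those with at least 80 fragments, the vehicle and XY018 summits lay over 100 bp apart at 5 for SREBP2, 9 for RORγ and 10 for H3K27ac. MYO1C, with 16 and 199 H3K27ac fragments, and NECTIN3, with 71 and 10 RORγ fragments, are such cases, with summits 1025 and 652 bp apart. The lowest SREBP2 ratios held at the same summit, at ROPN1L with 80 and 32 fragments and at COX6A2, a muscle subunit of cytochrome oxidase, with 57 and 23. With summits within 100 bp, a limit chosen after the values were seen, RORγ was lowest at DAAM2 with 59 and 26 fragments and highest at DPEP1 with 37 and 63. H3K27ac was lowest at DDX24 with 60 and 25, and low at the cell cycle genes CDC20, with 74 and 31, and TOP2A, with 66 and 28. It was highest at NRTN with 27 and 92, and high at BBC3, which encodes the cell death protein PUMA, with 43 and 115. Restricting all members to such summits left the median ratios at 0.613 for SREBP2, 0.99 for RORγ and 1.28 for H3K27ac.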

How the data were processed

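ChIP-seq peak lists of 6 immunoprecipitated libraries were used, and the 6 inputs among the 12 samples were not used here. Per the submitters' processing notes and the published methods, alignment was to hg19 (Bowtie2 in the notes, BWA in the methods) and peaks were called with MACS2 2.1.0 per library. The authors deposited for each region a fold enrichment, a −log10 p-value, a −log10 q-value and a summit offset. The deposited H3K27ac lists are part of longer call sets, since their peak numbers have gaps, and the selection rule was not stated in the sources used.

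Fold and −log10 p-value were inverted to fragments at the summit, and 98.7% to 100% of values per library were whole within 0.05 of a step. Where several regions overlapped, the one with the most fragments was used. Ratios divide pileups by the genome-wide background of each library. Promoters came from GENCODE 44 lifted to hg19. Shares have exact Clopper-Pearson and fragment numbers exact Poisson 95% intervals, which limits precision most at weak regions. With 1 library per group no test was run. Scripts (Python 3.11.15, NumPy 2.4.6, pandas 2.3.3, SciPy 1.17.1, pysam 0.24.0) were tested on simulated data.

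Members and gene lists were chosen with earlier results of these data known. Genes named were the 10 members with the highest SREBP2 vehicle fold, the 5 lowest and 5 highest ratios per antibody with at least 80 fragments, all members at the cholesterol synthesis and SREBP regulator lists, the 5 strongest with an SRE, and the 2 strongest of each other list. Some of them are not reported here. Alternatives were a q-value of at most 0.01 or 1e-05, 50% overlap, the summit inside the promoter, coding transcripts only, other scalings and motif windows of 50 bp. Restriction to summits within 100 bp was chosen after seeing the data.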

Additional observations from a re-analysis of the deposited data

How the results depend on the processing

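No paired analysis was possible because each group holds 1 library, and for the same reason no library could be left out. Of 72 values under alternatives, 43 stayed within the counting interval of the reported value, or within 1.5-fold for counts, and 29 moved. None changed direction, and the causes were not tested unless the alternative itself sets the value. With q at most 0.01 in all 6 lists, the median H3K27ac ratio was 1.28, the RORγ call share 95.1%, the H3K27ac call share 94.6% and the share of coding genes 47.7%. With q at most 1e-05, which left 10804 members, the H3K27ac ratio was 1.3, the SREBP2 ratio 0.635, the CCAAT share 5.82%, the GC box share 72.1%, SREBP2 and RORγ summits within 100 bp 65.1%, the RORγ call share 93.5%, the H3K27ac call share 95.4% and the share of coding genes 41.7%. With the SREBP2 summit inside the promoter, which left 9890 members, CCAAT was at 7.19%, the GC box at 71.4%, RORγ calls at 95% and coding genes at 35.1%. With coding transcripts only, the H3K27ac ratio was 1.29, the GC box share 70.8%, shared summits 64.9% and H3K27ac calls 94.8%. Ratios of the deposited fold values, which carry a pseudocount, were 1.28 for H3K27ac, 0.931 for RORγ and 0.683 for SREBP2, and scaling by tags per kb gave 0.686 for SREBP2. Motifs within 50 bp, a shorter window, were at 2.90% for CCAAT, 51.6% for the GC box and 0.297% for the SRE. With vehicle and XY018 summits within 100 bp, chosen after seeing the data, the RORγ ratio was 0.99 and the SREBP2 ratio 0.613. Regions of few fragments limit what single ratios can show.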

Other observations

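SREBP2 was higher with XY018 at the same summit at MIR34AHG, the host gene of a p53-induced microRNA, with 52 and 71 fragments, and at DNMT1, the maintenance DNA methyltransferase, with 42 and 57, both chosen after their values were seen. Among complex I subunits H3K27ac was higher at 11 of 21 members, and among translation initiation factors at 29 of 33. Over all members with H3K27ac called in both libraries, 79.4% were higher.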
